A study of Mus musculus with 4 samples.

Results

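The transcription factors that build blood cells were followed in the livers of mice with and without a viral oncogene. The set held 10 genes, Myb, Hemgn, Gfi1b, Nfe2, Klf1, Gata1, Gata2, Tal1, Lmo2 and Runx1. Every probe set whose single gene symbol on the array platform was one of these was taken, which gave 15 of the 12488 probe sets and at least 1 for each gene. The array named 8252 genes in all by probe sets with a single symbol.

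The PEPCK-TAg mice carry a transgene for the large T and small t oncoproteins of the virus SV40, named for the promoter of the gluconeogenic enzyme PEPCK, which is active in hepatocytes and responds to diet. The wild-type mice carry no transgene. Both groups were male mice of the hybrid strain B6SJL, 50 to 66 days old, and both had been given a diet of 65% protein and 10% carbohydrate for 4 weeks from weaning. Total RNA of whole liver was hybridised to Affymetrix MG_U74Av2 arrays, 2 for PEPCK-TAg and 2 for wild-type liver. The series speaks of duplicate measurements. Separate animals are not stated for the duplicates, and p-values then reflect the spread between these arrays alone, which may be technical.

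Blood formation moves to the liver in the fetus and later to the bone marrow, so that the adult liver normally holds few blood precursors. Gata2, Runx1 and Myb act in stem and progenitor cells. Gata1 takes over as progenitors commit to red cells, megakaryocytes or mast cells, and there joins Tal1, Lmo2 and the adaptor Ldb1 in a complex on GATA and E-box letters in the DNA of its targets. Klf1, Nfe2, Gfi1b and Hemgn work in the same lineages: Klf1 and Nfe2 act at the globin genes, Gfi1b is a repressor, and Hemgn is a nuclear protein of blood progenitors and erythroid precursors.

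Promoters are shown because 6 of these genes rose together in PEPCK-TAg liver, and because GATA factors are known regulators of several of them. RefSeq promoters of build GRCm38.p6 were found for 8 of the 10 genes, all but Nfe2 and Lmo2, in 11 windows of the 250 bases before an annotated start. The letters GATAA, read on both strands, stood in 4 of the 11 windows and in 22.6% of the 32851 promoters of the same length. Below are the windows of 3 genes that rose and hold it, Hemgn, Gfi1b and Klf1, and of Myb, which rose and has none. Capitals mark GATAA, or TTATC where it lies on the other strand.
Hemgn, chr4:46404184-46404433, minus strand: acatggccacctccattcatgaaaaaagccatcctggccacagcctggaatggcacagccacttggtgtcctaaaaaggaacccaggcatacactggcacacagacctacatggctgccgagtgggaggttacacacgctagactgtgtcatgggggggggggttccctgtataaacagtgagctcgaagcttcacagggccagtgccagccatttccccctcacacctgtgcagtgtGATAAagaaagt
Gfi1b, chr2:28621983-28622232, minus strand: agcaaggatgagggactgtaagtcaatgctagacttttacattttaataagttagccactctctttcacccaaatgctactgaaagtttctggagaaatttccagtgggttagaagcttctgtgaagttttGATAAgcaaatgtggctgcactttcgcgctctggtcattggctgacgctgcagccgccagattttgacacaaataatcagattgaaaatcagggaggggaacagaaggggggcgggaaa
Klf1, chr8:84901732-84901981, plus strand: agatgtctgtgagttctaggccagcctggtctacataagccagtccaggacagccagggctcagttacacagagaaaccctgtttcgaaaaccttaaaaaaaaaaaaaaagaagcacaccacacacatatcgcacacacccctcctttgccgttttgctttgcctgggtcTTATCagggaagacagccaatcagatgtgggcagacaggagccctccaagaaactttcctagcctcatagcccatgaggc
Myb, chr10:21160985-21161234, minus strand: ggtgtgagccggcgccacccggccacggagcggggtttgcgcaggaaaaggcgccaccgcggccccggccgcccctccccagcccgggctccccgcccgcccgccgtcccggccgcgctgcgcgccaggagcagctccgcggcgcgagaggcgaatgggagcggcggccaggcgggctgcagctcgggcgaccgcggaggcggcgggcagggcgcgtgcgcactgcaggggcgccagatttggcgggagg

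The first base of the capitals lies 12 bases before the start in Hemgn, 119 in Gfi1b and 80 in Klf1. The fourth window with GATAA was that of 1 of the 2 starts of Tal1. Other letters were searched on both strands: CCNCNCCC, bound by Klf1 and its relatives, stood in 9 of the 11 windows and in 45.9% of all promoters, the E-box CANNTG in 5 and 66.2%, AACNGT of Myb in 2 and 22.3%, TGTGGT of Runx1 in 1 and 14%, AAATCA of Gfi1b in 1 and 12.4%, and TGANTCA of Nfe2 and related factors in 0 and 6.75%. The windows differ in base composition, as the Myb and Klf1 windows show, and a match is a description of the letters and not of binding.

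Hepatocyte markers were present: all 19 on the array lay above the filter level of 41.3 on all 4 arrays, and albumin (Alb) read 9389.0 and 13118.4 in PEPCK-TAg liver, against 15349.7 and 17282.0 in wild-type liver. Values are MAS5 signals, which have no unit and are compared here within a probe set, apart from sums over lists, in which bright probe sets weigh most. Differences are of log2 signals after a floor at 10.6, PEPCK-TAg minus wild type, and probe sets with fewer than 2 of the 4 arrays above 41.3 were left untested. A call is an adjusted p under 0.05 in limma's moderated test, adjusted by Benjamini-Hochberg across 7877 probe sets. With 2 arrays in each group, the smallest p of an exact two-sided permutation test would be 0.333. The median log2 difference over all probe sets tested was 0.051, and 60.2% and 62.8% of probe sets exceeded the filter level on the PEPCK-TAg arrays, against 58.9% and 58.1% on the wild-type arrays. The PEPCK-TAg arrays shared a chip lot that neither wild-type array had, so lot and group cannot be told apart. PEPCK-TAg 1 and wild-type 1 were scanned on the same day, PEPCK-TAg 2 alone ran on another fluidics station, and wild-type 2 alone was read on another type of scanner.

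Of the 15 probe sets, 10 were tested, covering 8 genes, and 5 were too dim. In PEPCK-TAg liver 8 probe sets of 6 genes rose (Myb, Hemgn, Gfi1b, Nfe2, Klf1 and Lmo2), none fell, and 2 did not pass. Of all probe sets tested, 9.10% rose and 3.40% fell, 12.5% in both directions. The filter matters for this count: 4 of the 10 had no wild-type array above 41.3 and could enter only through the PEPCK-TAg arrays. Of the 5 with both wild-type arrays above it, 4 rose, where 6.08% of all such probe sets did. Without a test, 9 of the 10 were at least 2-fold higher in PEPCK-TAg liver with no overlap between the groups, against 14.7% of all probe sets tested. With Gata2, which was lower, the groups did not overlap in any of the 10, against 59.8% of all probe sets tested.

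The calls depended on both PEPCK-TAg arrays. With the same probe sets tested and either PEPCK-TAg array left out, limma's calls among the 10 were lost. So were those over all probe sets tested, and the loss is not particular to the factors. With either wild-type array left out, most calls among the 10 stayed. Each of these fits leaves 1 array in a group. With the filter repeated on the remaining arrays, Nfe2 and Lmo2 96810_at were called without PEPCK-TAg 1 and 0 without PEPCK-TAg 2, of 6 tested in both cases. With the fluidics station as a block 0 were called, of 0 over all probe sets, while the log2 differences of the 8 risen probe sets stayed between 1.13 and 5.57. In the pair of arrays scanned on the same day these differences were 1.07 to 5.85. In bulk liver, fewer cells of a type and less RNA per cell cannot be told apart, and the same holds for more cells and more RNA.

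**Figure D1:**
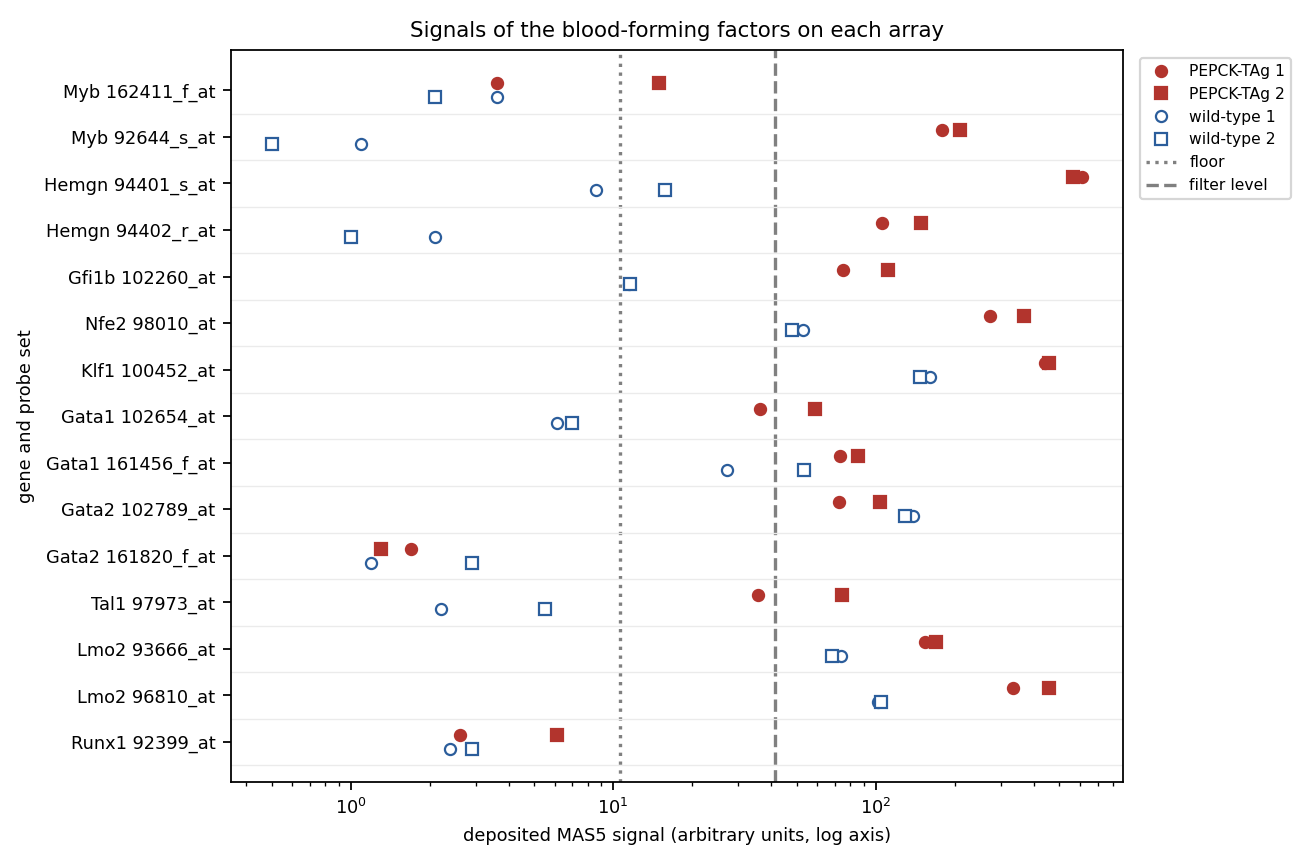
Deposited MAS5 signal (arbitrary units, log axis) of each of the 15 probe sets on each array, PEPCK-TAg filled and wild-type open, with the floor at 10.6 and the filter level at 41.3 as vertical lines. The groups stand apart in the 10 probe sets tested, with Gata2 102789_at the one in which the PEPCK-TAg arrays are lower, while Runx1 and the dim probe sets of Gata2 and Myb lie below the filter level throughout.

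Hemgn had the largest difference of the set, with the floor at the 20th as well as at the 40th percentile. Its probe set 94401_s_at read 612.7 and 564.2 in PEPCK-TAg liver, against 8.6 and 15.7 in wild-type liver. Both PEPCK-TAg arrays were far above both wild-type arrays, at least 45.6-fold on average (log2 difference 5.51 ± 0.34 SE, adjusted p = 0.000589 by limma). As throughout, each group had 2 arrays. The other Hemgn probe set, 94402_r_at, read 105.9 and 149.3 in PEPCK-TAg liver, against 2.1 and 1.0 in wild-type liver, at least 11.9-fold (3.57 ± 0.42 SE, adjusted p = 0.00378). The 2 probe sets of this gene shared the direction and differed in size, and both wild-type signals of the second lay under the floor. Its letter r marks a probe set for which Affymetrix dropped some design rules, and the letter s marks probes shared by several transcripts.

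Gfi1b, the zinc finger repressor needed for red cells and megakaryocytes, read 75.1 and 111.3 in PEPCK-TAg liver, against 11.5 and 11.6 in wild-type liver. The groups did not overlap, with a fold of 7.91 at this floor (2.98 ± 0.44 SE, adjusted p = 0.00842). The wild-type values sat just above the floor and below the filter level, so the size of this fold is uncertain. With the floor at the 40th percentile the difference was 1.15 and the call was lost (adjusted p = 0.0504, where the alternatives gave 0.000785 to 0.129).

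Nfe2, the blood-specific subunit of the dimer NF-E2 that pairs with small Maf proteins, read 273.5 and 366.0 in PEPCK-TAg liver, against 52.8 and 48.2 in wild-type liver. All 4 arrays lay above the filter level, so this 6.26-fold rise did not hang on the floor (2.65 ± 0.30 SE, adjusted p = 0.00345). Klf1, which binds CACCC boxes of the adult beta-globin gene, read 442.5 and 458.3 in PEPCK-TAg liver, against 161.5 and 147.3 in wild-type liver. The arrays of each group lay close together and the groups did not overlap, at 2.92-fold (1.54 ± 0.25 SE, adjusted p = 0.0109). As with Nfe2, all 4 arrays read Klf1 above the filter level.

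Lmo2, the LIM protein that bridges Tal1 and the GATA factors, had 2 probe sets, and both rose. Probe set 96810_at read 334.4 and 458.5 in PEPCK-TAg liver, against 102.4 and 104.9 in wild-type liver, or 3.77-fold (1.92 ± 0.28 SE, adjusted p = 0.00834). Probe set 93666_at read 154.7 and 169.7 in PEPCK-TAg liver, against 73.5 and 68.0 in wild-type liver, or 2.29-fold (1.19 ± 0.29 SE, adjusted p = 0.0428). This second call was the least firm of the 8: besides the settings above and no filter, it was lost under quantile normalization (0.93, adjusted p = 0.0792), with scanner type as a block (1.14, adjusted p = 0.0967) and without wild-type 2 (1.14, adjusted p = 0.0615), in a range of 0.0233 to 0.261 over its alternatives.

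Tal1, the helix-loop-helix partner of Lmo2, read 35.6 and 74.7 in PEPCK-TAg liver, against 2.2 and 5.5 in wild-type liver. Its groups did not overlap, but only PEPCK-TAg 2 exceeded the filter level, so it was not tested. Admitting probe sets with at least 1 array above that level, a setting chosen after seeing the data, gave at least 4.87-fold and no call (2.28 ± 0.65 SE, adjusted p = 0.0669, and 0.157 with no filter).

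Gata1, the master factor of the red cell lineage, gave 2 readings. Probe set 102654_at read 36.2 and 58.9 in PEPCK-TAg liver, against 6.1 and 7.0 in wild-type liver. As with Tal1 the groups did not overlap and 1 array exceeded the filter level, and in the wider test the difference was 2.12 ± 0.63 SE (adjusted p = 0.0750, and 0.108 with no filter). Probe set 161456_f_at, whose letter f marks probes shared within a sequence family, read 73.0 and 85.6 in PEPCK-TAg liver, against 27.1 and 53.5 in wild-type liver. It was tested and did not pass (1.05 ± 0.44 SE, adjusted p = 0.165). Its wild-type arrays were apart by 0.98 on the log2 scale, nearly as much as the groups.

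Gata2, the GATA factor of stem cells and early progenitors, was the one tested factor with a difference below 0. Probe set 102789_at read 72.8 and 103.8 in PEPCK-TAg liver, against 139.1 and 129.7 in wild-type liver. The groups did not overlap, and the difference did not pass (-0.63 ± 0.32 SE, adjusted p = 0.237). It kept its sign in every alternative run, between -0.89 and -0.37. The other Gata2 probe set, 161820_f_at, read 1.7 and 1.3 in PEPCK-TAg liver and 1.2 and 2.9 in wild-type liver, all below the floor. Whether Gata1 and Gata2 differed from each other in their response was not tested.

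Myb, needed for the fetal liver's definitive blood formation and for the growth of progenitors, was read by 92644_s_at at 179.5 and 209.3 in PEPCK-TAg liver, against 1.1 and 0.5 in wild-type liver. Wild-type liver gave almost no signal, and the rise was at least 18.3-fold (4.19 ± 0.37 SE, adjusted p = 0.00161). Both wild-type arrays were at the floor, so the floor sets this bound and the standard error holds no spread from that group. The difference was 5.43 with the floor at the 10th percentile and 2.23 at the 40th. The other Myb probe set, 162411_f_at, read 3.6 and 14.9 in PEPCK-TAg liver and 3.6 and 2.1 in wild-type liver, too dim to test. Runx1, which opens definitive blood formation in the embryo, read 2.6 and 6.1 in PEPCK-TAg liver and 2.4 and 2.9 in wild-type liver. All 4 signals lay below the floor, so these values hold no measure of a change in Runx1.

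**Figure D2:**
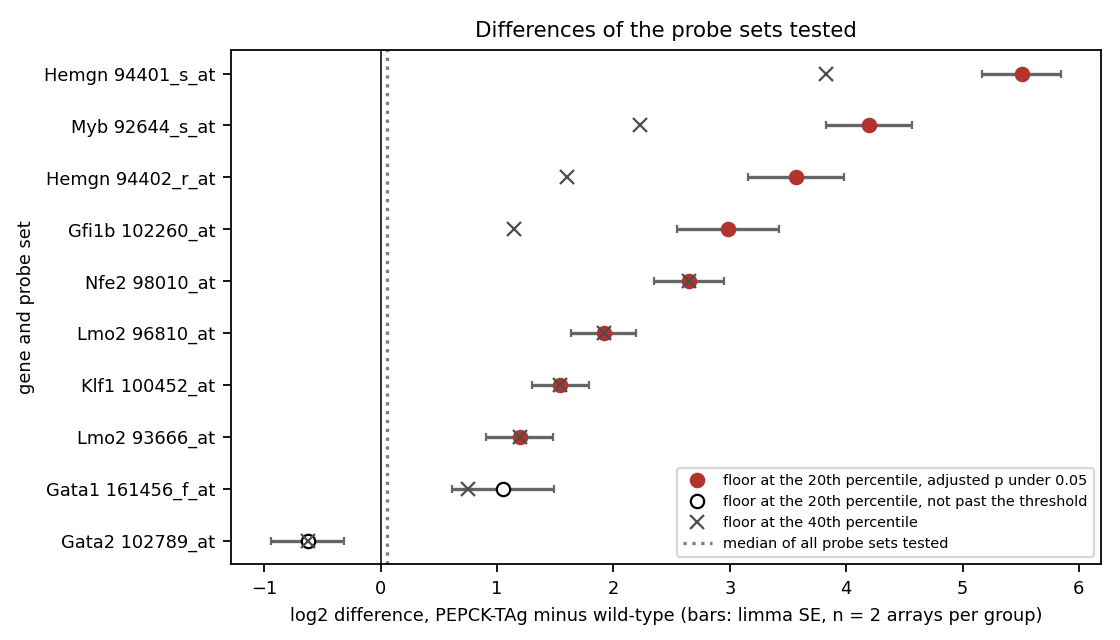
Log2 difference (PEPCK-TAg minus wild-type, x axis) of the 10 probe sets tested, with limma SE (n = 2 arrays per group), and crosses for a floor at the 40th percentile. The differences run between -0.63 for Gata2 and 5.51 for Hemgn 94401_s_at, and with the higher floor Hemgn 94401_s_at, Myb, Hemgn 94402_r_at and Gfi1b shrink to 3.83, 2.23, 1.61 and 1.15 while Nfe2, Klf1 and Lmo2 keep their values.

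The order of the factors by size depends on how dim wild-type values are handled, as the crosses of the plot of differences show. Neighbours in that order were mostly within their errors: Hemgn 94402_r_at, Gfi1b and Nfe2 lay at 3.57, 2.98 and 2.65 with errors of 0.30 to 0.44, and Lmo2 96810_at and Klf1 at 1.92 and 1.54 with errors of 0.28 and 0.25. The 2 PEPCK-TAg arrays also differed. In 9 of the 10 probe sets tested PEPCK-TAg 2 read higher than PEPCK-TAg 1, against 54.6% of all probe sets tested, by up to 0.57 on the log2 scale, and Hemgn 94401_s_at was the exception. The summed signal of 28 erythroid genes moved the same way, at 20240 on PEPCK-TAg 1 and 27798 on PEPCK-TAg 2, against 11839 and 10226 in wild-type liver. Bright probe sets such as that of Hba-a1 weigh most in this sum, so it does not show that the 28 genes moved together. The part of erythroid RNA in the factors' values was not tested.

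Of 25 relatives and partners of the factors tested, 3 rose and none fell, beside the 9.10% of all probe sets tested that rose, with a median log2 difference of 0.066, close to that of all probe sets. Lyl1, the closest paralog of Tal1 in blood cells, read 349.9 and 395.3 in PEPCK-TAg liver, against 49.8 and 30.5 in wild-type liver, by 100468_g_at (9.53-fold, 3.25 ± 0.34 SE, adjusted p = 0.00268). A dimmer Lyl1 probe set, 100467_at, read 28.4 and 70.8 in PEPCK-TAg liver, against 3.3 and 2.3 in wild-type liver, and was not tested. Klf6, a widely expressed relative of Klf1, rose 6.43-fold (2.69 ± 0.33 SE), and Lmo4, a relative of Lmo2, rose 2.09-fold (1.06 ± 0.26 SE).

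Several proteins that the factors pair with did not pass at their brightest probe set. Ldb1, the adaptor of the Gata1 complex, read 145.7 and 317.9 in PEPCK-TAg liver and 131.1 and 171.0 in wild-type liver, which overlap (adjusted p = 0.439). Zfpm1, the Gata1 cofactor FOG1, read 909.6 and 933.6 in PEPCK-TAg liver and 921.2 and 509.1 in wild-type liver (adjusted p = 0.415). The Nfe2 partners Mafk and Mafg gave -0.26 and 0.15 (adjusted p = 0.649 and 0.750). Cbfb, the partner of Runx1, gave 0.040 at its brighter probe set (adjusted p = 0.925), whereas 93546_s_at rose by 0.94 ± 0.23 SE (adjusted p = 0.0428), so its probe sets disagree. Mybl2, a Myb relative of dividing cells, read 56.7 and 59.6 in PEPCK-TAg liver and 85.5 and 104.5 in wild-type liver by 161160_f_at. This probe set did not pass in limma (-0.70, adjusted p = 0.198). The other, 100023_at, read 15.1 and 39.3 in PEPCK-TAg liver and 16.8 and 16.8 in wild-type liver, too dim to test, and did not share the direction.

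Of 22 other factors of blood cell formation tested, 1 rose and none fell, with a median of 0.20. Over all probe sets tested, 9.10% rose and 3.40% fell, so this count does not set the list apart. The risen factor was Irf8 of monocytes and dendritic cells, at 384.0 and 278.3 in PEPCK-TAg liver, against 158.0 and 105.6 in wild-type liver (1.34 ± 0.32 SE, adjusted p = 0.0434). Spi1, the myeloid factor PU.1, read 89.9 and 82.9 in PEPCK-TAg liver and 93.0 and 48.7 in wild-type liver, which overlap (adjusted p = 0.588). Ikzf1 of lymphoid progenitors gave -0.068 (adjusted p = 0.927).

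Genes that the erythroid factors are known to switch on rose in part. Of 25 erythroid genes tested, 9 rose and none fell at their brightest probe set, with a median of 0.95, beside the 9.10% of all probe sets tested that rose. Among membrane proteins, Slc4a1, the band 3 anion exchanger, read 405.1 and 1205.5 in PEPCK-TAg liver, against 42.5 and 73.4 in wild-type liver (12.5-fold, 3.64 ± 0.55 SE, adjusted p = 0.00895). Rhd, of the Rh blood group, rose 12.1-fold, Epb42 at least 11.6-fold and Car2, a carbonic anhydrase, 25.7-fold. No wild-type array exceeded the filter level for Rhd or Epb42, so both could enter the test only through the PEPCK-TAg arrays. Slc4a1 and Car2 had both wild-type arrays above that level. The globin genes Hbb-b2 and Hba-a1 rose 5.02-fold and 3.67-fold, and near-identical globin genes may share their probes. Ank1, the ankyrin of the red cell membrane, did not pass at its brightest probe set (0.95, adjusted p = 0.0514) and rose at 2 others. Of these, 100441_s_at likewise had no wild-type array above the filter level.

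Some textbook targets of Gata1 did not pass. Alas2, the erythroid enzyme that starts haem synthesis, read 568.6 and 1124.7 in PEPCK-TAg liver and 1256.5 and 1111.4 in wild-type liver, with overlap (adjusted p = 0.323). The transferrin receptor Tfrc gave 0.042 at its brightest probe set (adjusted p = 0.955). A dimmer Tfrc probe set, 103957_at, read 25.8 and 33.5 in PEPCK-TAg liver, against 8.2 and 10.3 in wild-type liver, and was not tested. The erythropoietin receptor Epor read 129.8 and 163.0 in PEPCK-TAg liver, against 40.8 and 94.0 in wild-type liver, and did not pass (1.23, adjusted p = 0.126). The embryonic globins Hbb-bh1 and Hbb-y were too dim to test, and Hba-x gave -0.61 (adjusted p = 0.548).

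**Figure D3:**
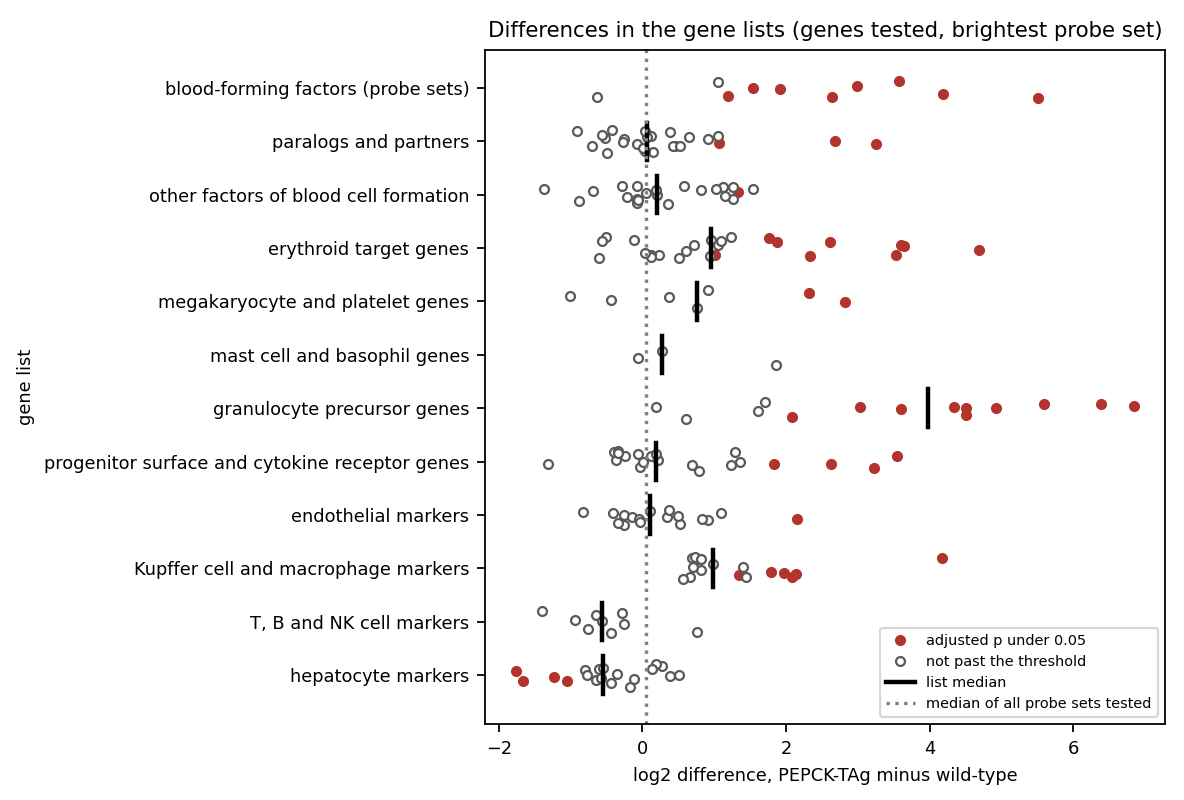
Log2 difference (PEPCK-TAg minus wild-type, x axis) of each gene tested, by list, filled where the adjusted p was under 0.05, with a bar at each list's median. Granulocyte genes reach the furthest right, with a median of 3.98, and 4 of the 14 tested had both wild-type arrays above the filter level. Erythroid genes and macrophage markers have medians of 0.95 and 0.99, and paralogs, other factors and endothelial markers lie around 0.

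Gata1, Gata2 and Nfe2 also serve megakaryocytes. Beside the 9.10% of all probe sets tested that rose, 2 of 7 megakaryocyte and platelet genes tested rose, with a median of 0.76. They were the platelet receptor subunits Gp1bb and Gp9. Gp1bb read 53.1 and 106.2 in PEPCK-TAg liver, against 6.5 and 9.2 in wild-type liver. Gp9 read 115.5 and 199.7 in PEPCK-TAg liver, against 23.3 and 39.8 in wild-type liver. No wild-type array exceeded the filter level for either gene, so both could enter the test only through the PEPCK-TAg arrays. The rise was at least 7.09-fold for Gp1bb (2.83 ± 0.51 SE, adjusted p = 0.0170) and 4.98-fold for Gp9 (2.32 ± 0.44 SE, adjusted p = 0.0203). The platelet chemokine Pf4 read 3.2 and 6.5 in PEPCK-TAg liver and 5.0 and 22.1 in wild-type liver, below the filter level. Gp5, another platelet glycoprotein, read 21.2 and 23.2 in PEPCK-TAg liver, against 44.8 and 44.4 in wild-type liver, by 161585_at. The groups did not overlap, and this probe set did not pass in limma (-1.01 ± 0.42 SE, adjusted p = 0.161). The other Gp5 probe set, 100740_at, read 7.5 and 67.2 in PEPCK-TAg liver, against 4.9 and 5.6 in wild-type liver. It was not tested, and the probe sets of Gp5 differ in direction. Of 13 mast cell and basophil genes 3 were tested and 0 passed in limma, with 1 at an unadjusted p under 0.05 (Hdc, adjusted p = 0.0764).

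Progenitor surface and cytokine genes were mixed. Of 21 tested, 4 rose, with a median of 0.19, beside the 9.10% of all probe sets tested that rose. The 4 were Kitl, the ligand of Kit (164.0 and 146.7 in PEPCK-TAg liver, against 14.7 and 18.5 in wild-type liver), Prom1, Cd48 and the leukocyte antigen Ptprc. No wild-type array exceeded the filter level for any of the 4, so they could enter the test only through the PEPCK-TAg arrays. Kit itself, the receptor on progenitors and a Gata2 target, read 45.3 and 43.7 in PEPCK-TAg liver and 39.0 and 55.0 in wild-type liver (adjusted p = 0.937). Cd34 read 25.5 and 33.7 in PEPCK-TAg liver, against 6.3 and 9.4 in wild-type liver, too dim to test. Epo, the hormone of red cell formation, gave -1.32 and did not pass (adjusted p = 0.1002).

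Markers of other cells are given beside the factors. Of the lists below, those of granulocytes and macrophages had medians well above that of all probe sets tested, and the others did not. Over all probe sets tested, 9.10% rose and 3.40% fell. Of 14 granulocyte precursor genes tested, 10 rose, with a median of 3.98, among them S100a9, Ngp, S100a8, Camp and Ltf. All 14 had both PEPCK-TAg arrays above the filter level, and 4 had both wild-type arrays above it. Most therefore owed their place in the test to the PEPCK-TAg arrays. Of the 4, Camp and Lyz2 rose, and Elane and Csf3r did not pass. Another 8 genes of the list were not tested. The list summed to 8692 and 13239 in PEPCK-TAg liver, against 856 and 855 in wild-type liver. Of 17 Kupffer cell and macrophage markers 6 rose, among them Lgals3, Tyrobp, Lyz2 (also in the granulocyte list), Cd5l and Cd14, with a median of 0.99 and sums of 10538 and 10991 in PEPCK-TAg liver, against 5523 and 4123 in wild-type liver, and Marco was below the floor on all 4 arrays. Gata2, Tal1, Lmo2 and Lyl1 are also made by endothelial cells, and 1 of 17 endothelial markers rose (Icam2), with a median of 0.11 and sums of 2944 and 3170 in PEPCK-TAg liver, against 3814 and 2470 in wild-type liver. No wild-type array exceeded the filter level for Icam2 or for Lgals3, so both could enter the test only through the PEPCK-TAg arrays. The other risen macrophage markers had both wild-type arrays above that level. Of 9 T, B and NK cell markers tested 0 passed in limma and 1 had an unadjusted p under 0.05, with a median of -0.56. Of 19 hepatocyte markers 4 fell, Tdo2, Ttr, Tat and Cyp2e1, with a median of -0.56. The part of these cells in the factors' values was not tested.

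The genes with the pattern most like each risen factor were found by the root mean square difference over the 4 arrays of log2 signals set to the wild-type mean. With 4 arrays many genes lie close, so this is a description of these arrays. Both wild-type signals of Myb and of Hemgn 94402_r_at were raised to the floor, as were those of Syce2, Epb42 and Cdr2. The wild-type patterns of these genes match by that step. For Hemgn 94401_s_at the signal of wild-type 1 was raised to the floor, as was that of Top2a, and both wild-type signals of Hao2 were raised. Which genes lie nearest to Myb and to either Hemgn probe set therefore depends on the floor chosen. Nearest to Myb were Syce2, Mcm5 and Uhrf1, at 0.020, 0.086 and 0.12, of which Mcm5 is a helicase subunit of DNA replication and Uhrf1 a reader of methylated DNA in dividing cells. Nearest to Hemgn 94401_s_at were Top2a, Rrm2 and Hao2 at 0.20 to 0.31, the first of them a topoisomerase and the second a ribonucleotide reductase subunit of dividing cells. Nearest to Hemgn 94402_r_at was Epb42 of the red cell membrane at 0.083, followed by Cdr2 and Lsp1. Gfi1b had Rgs10, Vcam1 and Hmces as neighbours, Nfe2 had Lsm8, Plcg2 and Tnfaip8, and Klf1 had Siva1, Odf2 and Peli1. The neighbours of Lmo2 were Snx6, Tax1bp3 and Mrpl23 for 93666_at, and Nfatc2ip, Tpm1 and Fancg for 96810_at.

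**Figure D4:**
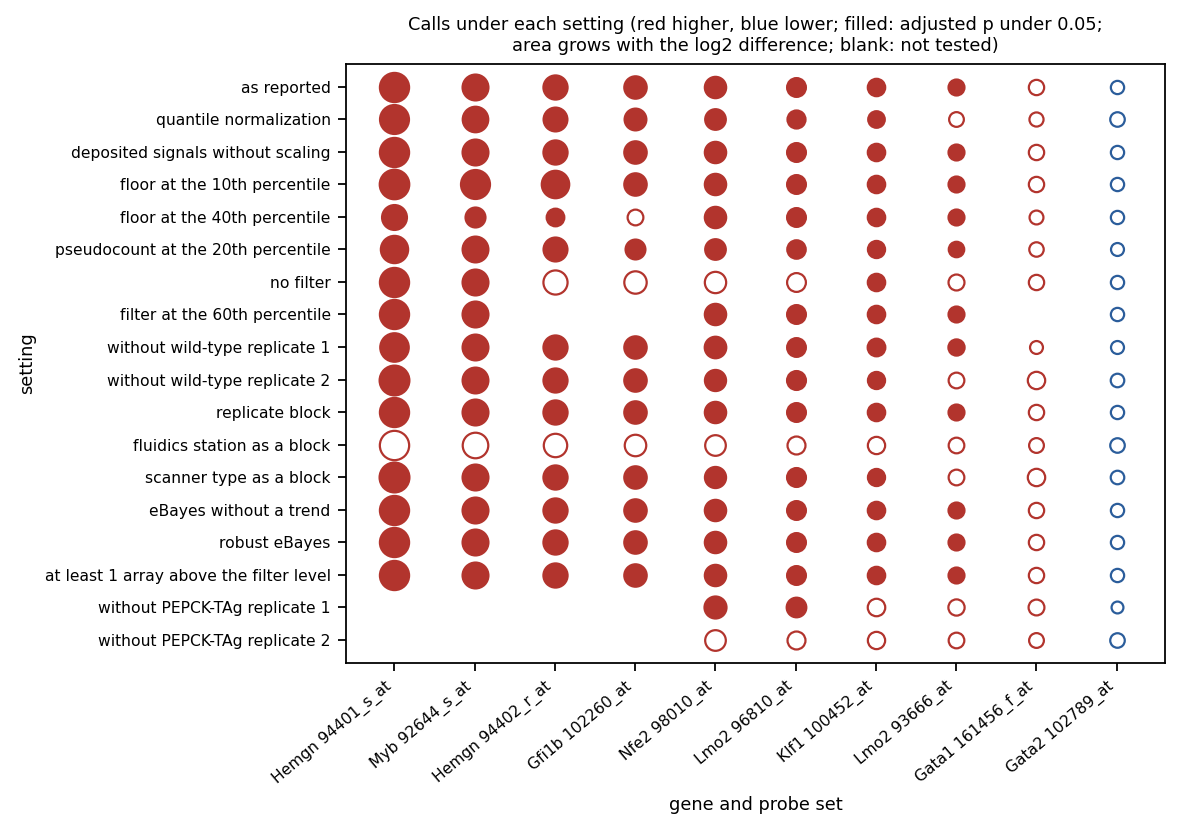
Result for each of the 10 probe sets tested (x axis) under each setting (y axis), with filled circles for an adjusted p under 0.05, area growing with the log2 difference, red for higher in PEPCK-TAg liver and blue for lower. No circle changes colour within a column, and the row for the fluidics station has no filled circle.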

How the data were processed

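Per the labels' protocols and the submitters' processing notes, total RNA of 4 liver samples was hybridised to MG_U74Av2 arrays and the authors deposited 1 MAS5 intensity per probe set and array, with no MAS5 version stated. The deposited signals had trimmed means of 250.1 to 250.2, so the authors had scaled them. Here they were scaled again without controls (changes up to 0.102%), raised to a floor of 10.6 (20th percentile) and log2 transformed. Probe sets with fewer than 2 arrays above 41.3 (40th percentile) were not tested. limma 3.58.1 in R 4.3.3 (eBayes with a trend, two-sided, no block) gave Benjamini-Hochberg adjusted p-values over 7877 probe sets. On simulated arrays of this comparison it recovered 55.5% of 200 probe sets changed 2-fold, 100% changed 4-fold and 100% changed 8-fold, with 9, 13 and 32 false calls. The changed probe sets were drawn from those with a mean log2 signal above the filter level, so recovery of dimmer ones was not simulated. Symbols came from the platform table, and all 10 matched RefSeq. The factors, lists and alternatives were chosen with earlier results of these data known. All probe sets of the factors are named, and in each list the called genes with the smallest p, at most 5 per direction. Slc4a1, and the genes named without a call, were named after their values were seen. A list gene is taken at its brightest probe set.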

Additional observations from a re-analysis of the deposited data

How the results depend on the processing

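No log2 difference of the 10 probe sets tested changed sign under any of the alternatives run, and calls did change. Over all probe sets tested, 985 were called, against 165 with no filter, 1873 with the replicate number as a block (replicate block), 0 with the fluidics station as a block (1432 at an unadjusted p under 0.05) and 1621 at an adjusted p of 0.1. Leaving out each array in turn and filtering again gave 127 to 1689, and 0 to 1448 with the same probe sets tested, a setting chosen after seeing the data. Among the blood-forming factors, 8 probe sets were called, against 3 with no filter (Myb 92644_s_at, Hemgn 94401_s_at and Klf1), 0 with the station as a block (8 at an unadjusted p under 0.05), 0 to 8 with an array left out and 8 with the replicate block. Without a PEPCK-TAg array the repeated filter left 6 of the 10 to test, and Myb, Hemgn and Gfi1b went untested. In the lists, 39 genes were called, against 5 with no filter, 59 with the replicate block, 0 with the station as a block (51 at an unadjusted p under 0.05), 9 to 59 with an array left out and 0 to 54 with the same probe sets. The cause was not tested, except that the station block leaves PEPCK-TAg 2 without weight and that no filter adjusts over 12422 probe sets. The replicate numbers are not known to pair the arrays (correlation of deviations 0.25, from 2 pairs). Wild-type signals at the floor make the folds of Myb and Hemgn bounds, and that of Gfi1b, just above it, depends on the floor.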
